A study of Homo sapiens with 12 samples.

Results

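The expression of 10 target genes of the transcriptional regulators YAP and SRF was followed in Hs 578T cells, a line derived from a triple-negative breast cancer (TNBC). Of these, 6 are widely used as YAP targets (CTGF, CYR61, ANKRD1, AMOTL2, LATS2 and AXL) and 4 encode contractile or actin-binding proteins whose transcription depends on SRF (TAGLN, ACTA2, CNN1 and TPM1). They were taken by symbol, CTGF and CYR61 being the older names of CCN2 and CCN1, and all 10 were found among the 55242 genes used. The choice was made with earlier results of these data known, so counts among these genes do not come from a blind choice. The cells had been transduced with lentiviral vectors for GFP or for full-length NRF2 and were cultured for 8 h with cystine (Cyss, 0.8 mM) or without it. The 4 groups, named GFP with Cyss, GFP without Cyss, NRF2 with Cyss and NRF2 without Cyss, had 3 libraries each. The medium of all groups held 10% serum, 0.2 mM methionine and 2 mM glutamine. Every library thus comes from transduced cells of a single line, and the labels do not say whether the libraries of a group were separate cultures, so p-values measure the spread between these libraries, which may be technical.

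YAP and its relative TAZ, encoded by YAP1 and WWTR1, are coactivators without a DNA-binding domain of their own. They reach their targets through the TEAD proteins and are kept in the cytoplasm when the Hippo kinases MST and LATS phosphorylate them. SRF binds the CArG box and is switched on by the MRTF coactivators, encoded by MKL1 and MKL2, which enter the nucleus when actin monomers assemble into filaments. Both regulators respond to cell shape, adhesion and serum, and several of their targets are shared, CYR61 among them.

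To show the sequences through which these regulators reach the genes, the 250 bases before the transcription start were read from RefSeq for 8 of the 10 genes, in which 11 promoters were listed (build GRCh38.p14). The short TEAD motif, GGAATG or its reverse complement CATTCC, lay in 11.89% of 35116 promoters of that length, and 0.9397% held at least 2 matches. CTGF held 3 matches, 169, 104 and 95 bases before the start, and ANKRD1 held 2, at 220 and 128 bases. AMOTL2 and AXL each held 1 match in the second of their 2 promoters, 69 and 212 bases before the start. ACTA2 held 1 in its second promoter, at 183 bases. The promoters of LATS2, CNN1 and TPM1 held no match. The strict CArG box, searched as CC, then 6 bases that are each A or T, then GG, lay in 1.159% of all promoters and in 0 of these 11. In the second ACTA2 promoter the stretches ccctatatgg and ccttgtttgg each differ from this form by 1 base. They stand in lower case, since imperfect forms were not searched for. A match describes the letters of the window and does not show that a factor binds there. The absence of a strict match does not show that none binds. The promoters of CTGF and ANKRD1 are printed because these genes had the largest increases and the most matches. That of ACTA2 is printed because it was the gene called lower (NRF2 against GFP cells without Cyss). Each runs from 5′ to 3′ with the TEAD motif in capitals. The CTGF window lies at chr6:131951373-131951622, that of ANKRD1 at chr10:90921088-90921337 and that of the second ACTA2 promoter at chr10:88952774-88953023, all on the minus strand.
CTGF: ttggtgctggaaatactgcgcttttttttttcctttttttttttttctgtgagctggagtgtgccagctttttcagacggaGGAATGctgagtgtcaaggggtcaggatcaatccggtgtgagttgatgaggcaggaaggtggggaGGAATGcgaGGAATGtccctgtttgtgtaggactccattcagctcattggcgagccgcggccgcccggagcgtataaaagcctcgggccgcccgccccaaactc
ANKRD1: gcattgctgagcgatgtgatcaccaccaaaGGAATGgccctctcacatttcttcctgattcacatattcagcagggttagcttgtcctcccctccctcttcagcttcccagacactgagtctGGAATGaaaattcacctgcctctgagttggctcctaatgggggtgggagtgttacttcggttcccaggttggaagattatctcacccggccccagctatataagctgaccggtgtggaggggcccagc
ACTA2, second promoter: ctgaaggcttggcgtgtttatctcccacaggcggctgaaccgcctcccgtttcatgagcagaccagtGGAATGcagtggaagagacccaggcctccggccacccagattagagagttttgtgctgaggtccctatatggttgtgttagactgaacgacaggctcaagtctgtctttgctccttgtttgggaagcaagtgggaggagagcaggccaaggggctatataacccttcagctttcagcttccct

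Reads on the genes used numbered between 27250993 and 44596870 per library, with a median of 32857536. NFE2L2, which encodes NRF2, was counted at 113 ± 3.21 CPM (reads scaled to library size) in GFP cells and at 199 ± 5.88 CPM in NRF2 cells with Cyss (mean ± SD, n = 3), and all NRF2 libraries lay above all GFP libraries. Of the mesenchymal markers, 10 of 10 were above 1 CPM in every group, with a summed level between 48948 and 51721 CPM. Single markers moved within that sum, since deprivation in NRF2 cells raised ZEB1 (log2FC 0.37, adjusted p = 1.3e-05, edgeR) and ZEB2 (0.35, adjusted p = 0.00022) and lowered TWIST1 (-0.38, adjusted p = 0.0017). None of the 10 was called in GFP cells or between NRF2 and GFP cells, and the interaction was called for ZEB1 (0.35), ZEB2 (0.32), TWIST1 (-0.30) and COL1A2 (-0.14). Of 11 epithelial and receptor markers, 3 exceeded 1 CPM (KRT8, KRT18 and ERBB2), and EPCAM was at 0 in the 3 libraries of NRF2 with Cyss and of GFP without Cyss. Of 6 markers of other cell types, MYOCD was the one well above 1 CPM, between 34.2 and 44.4 CPM, beside at most 1.59 CPM for PTPRC; it encodes myocardin, the muscle coactivator of SRF. KRT18 moved with Cyss: its levels lay between 22.9 and 24.6 CPM in NRF2 cells with Cyss and between 33.3 and 40.0 CPM without, and between 27.9 and 31.7 CPM in GFP cells with Cyss and between 34.5 and 43.7 CPM without. Under deprivation KRT18 was called higher in NRF2 (log2FC 0.66) and in GFP cells (0.39). The other epithelial and other-cell markers called lay at or below 1.59 CPM: PGR higher in NRF2 cells with Cyss (0.533 to 0.758 CPM against 0.0261 to 0.239 CPM in GFP cells) and without it (log2FC 3.85), CDH1 (-1.27) and PTPRC (-0.78) lower in NRF2 cells without Cyss, and LYVE1 lower under deprivation in NRF2 cells (-0.98). The part of these markers in the results was not tested. On the first principal component GFP without Cyss replicate 3 (4.48) stood apart from its group's other libraries (-6.63 and -4.16). NRF2 without Cyss replicate 1 had the largest share of reads outside genes (7.84%, against at most 6.69% elsewhere). Some results resting on these libraries, though not all, are therefore also given without them.

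The 10 genes differed widely in abundance. Per kilobase of the canonical transcript, with GENCODE 44 positions on GRCh37, TPM1 (tropomyosin, chr15:63334819-63364114) was highest at 847 CPM per kb over the 12 libraries. ACTA2 (smooth muscle actin, chr10:90694831-90751096) followed at 363 CPM per kb and CTGF (a secreted matricellular protein, chr6:132269316-132272512) at 314 CPM per kb. TAGLN (transgelin, an actin-binding protein, chr11:117070086-117078180) stood at 212 CPM per kb, and CYR61 (the matricellular relative of CTGF, chr1:86046444-86050272) at 201 CPM per kb. AXL (a receptor tyrosine kinase, chr19:41725128-41767671) stood at 142 CPM per kb. Far below these were CNN1 (calponin, chr19:11649582-11661138) at 31.6, AMOTL2 (angiomotin-like, which binds YAP, chr3:134074189-134094321) at 21.3 and LATS2 (the Hippo kinase, chr13:21547175-21635725) at 4.59 CPM per kb. ANKRD1 (a nuclear ankyrin repeat protein, chr10:92671853-92680844) was the rarest at 0.902 CPM per kb, with between 30 and 84 reads per library, so that counting error weighed most on it. Reads were counted on all exons, of which the canonical transcript is a part (1217 beside 14700 bases for TPM1, 1349 beside 5628 for ACTA2). For CTGF both lengths are 2338 bases, so this order and its changes depend on the length chosen. By the canonical length the order was the same in 3 of the 4 groups. In NRF2 without Cyss, CTGF (389 ± 7.32 CPM per kb) stood above ACTA2 (303 ± 5.44), whereas in GFP with Cyss it stood below it (270.2 ± 10.3 against 381 ± 27.9). CYR61 and TAGLN also changed places there (224 ± 3.26 against 198 ± 15.6), and in NRF2 with Cyss these neighbors differed by little more than their spread (191 ± 6.85 for CYR61 against 206 ± 8.97 for TAGLN). Counting ignored strand, and exons of other genes on the opposite strand cover 34.1% (PCSK7) of the TAGLN exons, 29.1% (ACTA2-AS1) of those of ACTA2, 18% (TPM1-AS) of those of TPM1 and 11.9% (LINC01013) of those of CTGF. On the same strand, ENSG00000280143 covers 38.1% of the TAGLN exons. PCSK7, ACTA2-AS1 and LINC01013 have rows of their own in the deposited counts, and reads that fit both genes of such a pair are set aside as ambiguous by the counting mode used (3.16 to 3.38% of the reads of a library). TPM1-AS and ENSG00000280143 have no row under these names, so that reads from them may be counted with TPM1 and TAGLN.

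**Figure D1:**
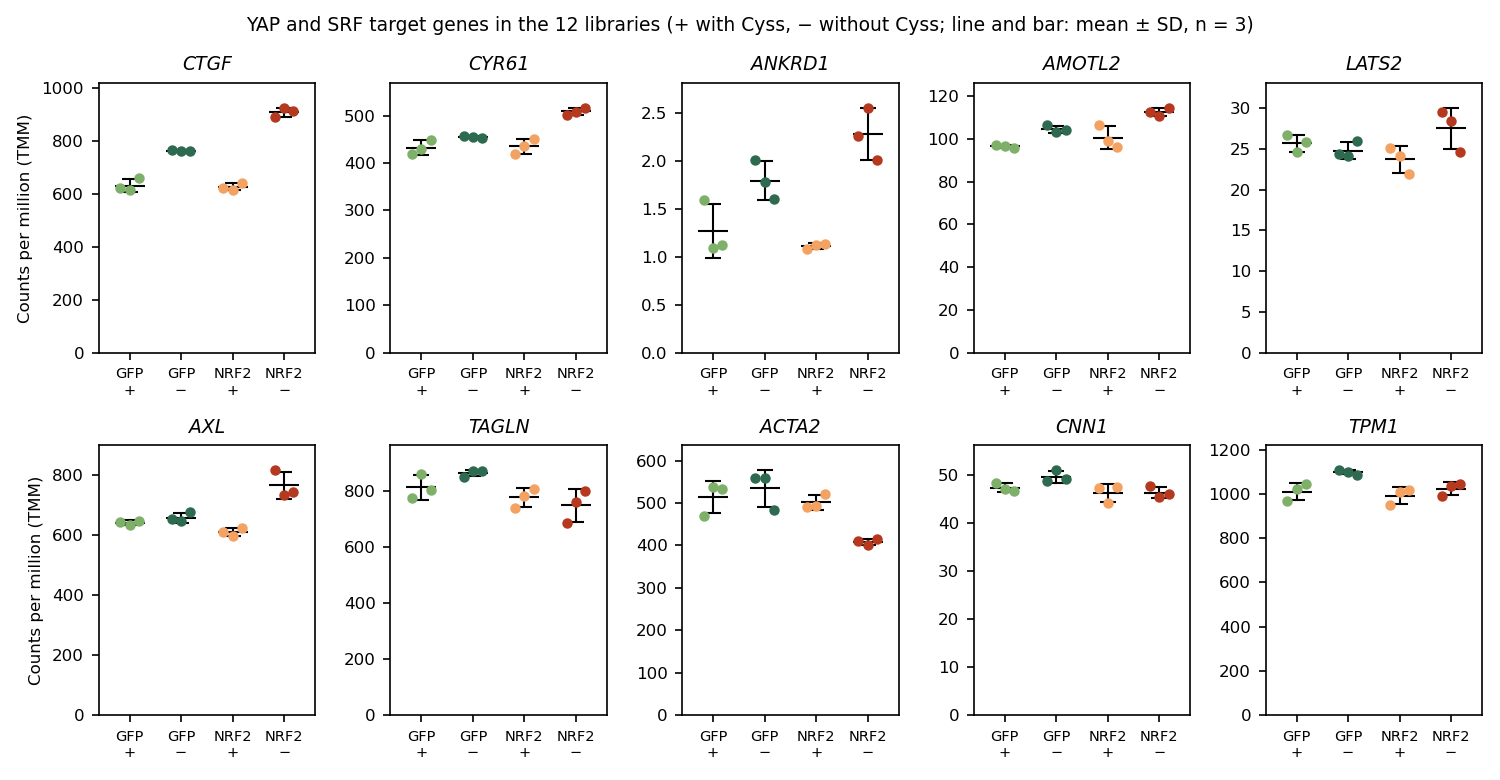
CPM (TMM-scaled, linear axis from 0) of each of the 10 genes in the 12 libraries, with 1 point per library in the groups GFP and NRF2 with (+) and without (−) Cyss; the line and bar give the mean ± SD (n = 3). CTGF rises to between 891 and 923 CPM in NRF2 without Cyss, while ACTA2 falls to between 400.2 and 414 CPM there.

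The first question was what Cyss deprivation does to these genes in GFP cells. CTGF was higher in every library without Cyss, by a factor of 1.21, which stayed under the fold change threshold of 0.32 on the log2 scale, and none of the SRF targets reached that threshold. In GFP with Cyss, CTGF was at 622, 614 and 659 CPM in replicates 1, 2 and 3, and without Cyss at 766, 762 and 761 CPM. The groups did not overlap, and the log2 fold change (log2FC) was 0.28 ± 0.035 (SE, adjusted p = 0.00043, from edgeR's quasi-likelihood fit with p-values adjusted over all genes after Benjamini and Hochberg). A gene was called when its adjusted p was under 0.1 and its log2FC exceeded 0.32 in size, and by this rule 0 of the 10 genes were called higher and 0 lower. Among all 17452 genes tested, 1.57% were called higher and 0.533% lower. At an unadjusted p under 0.05 the count was 6 of 10, beside 18.1% of all genes tested, and DESeq2 called 0.

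ANKRD1 was at 1.59, 1.09 and 1.12 CPM with Cyss and at 2.01, 1.78 and 1.60 CPM without it. The groups did not overlap, but replicate 1 with Cyss came near the lowest library without Cyss, and the log2FC of 0.52 ± 0.18 had an adjusted p of 0.14. Without that replicate it was 0.71 and was called (adjusted p = 0.056). TPM1 had a log2FC of 0.13 ± 0.035 (adjusted p = 0.075), below the fold change threshold. AMOTL2 had a log2FC of 0.12 (adjusted p = 0.10) and CYR61 one of 0.08 (adjusted p = 0.26). The log2FC of the other genes lay between -0.04 for LATS2 and 0.09 for TAGLN, and none of these 5 (LATS2, AXL, TAGLN, ACTA2 and CNN1) had an adjusted p under 0.1. The median log2FC was 0.10 over the 6 YAP targets and 0.08 over the 4 SRF targets, beside 0.0015 over all genes tested. In these bulk samples, fewer cells expressing a gene and less RNA per cell cannot be told apart.

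In NRF2 cells, the same deprivation raised 3 YAP targets: ANKRD1 rose by a factor of 2.04, CTGF by 1.45 and AXL by 1.26. None of the SRF targets was called, although ACTA2 was lower in every library without Cyss. Thus 3 of the 10 genes were called higher and 0 lower, beside 6.81% called higher and 5.14% called lower among all 17266 genes tested (1176 and 887 genes, or 936 and 1397 with scaling by library size alone). DESeq2 also called 3 higher and 0 lower.

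CTGF was at 624, 616 and 641 CPM in NRF2 with Cyss, and at 891, 923 and 916 CPM without Cyss. The libraries without Cyss lay far above those with it, and above those of GFP without Cyss, and the log2FC was 0.54 ± 0.041 (adjusted p = 2.4e-07, edgeR). ANKRD1 was at 1.08, 1.13 and 1.14 CPM with Cyss and at 2.27, 2.56 and 2.01 CPM without it, again with no overlap. Its log2FC was 1.03 ± 0.17 (adjusted p = 0.00046), and it rested on 30 to 36 reads per library with Cyss and 68 to 84 without.

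AXL was at 610.0, 597 and 623 CPM with Cyss and at 816, 733 and 743 CPM without it. The groups did not overlap, with replicate 1 without Cyss the highest. The log2FC of 0.33 ± 0.051 (adjusted p = 0.00031) lay just past the fold change threshold, and it fell to 0.27 without that replicate and to 0.31 without NRF2 with Cyss replicate 2, in both cases below the threshold. Without replicate 1, ANKRD1 (log2FC 1.02) and CTGF (0.55) were still called.

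A further 3 YAP targets had adjusted p-values under 0.1 with log2FC below the threshold. CYR61 was at 419, 437 and 450.4 CPM with Cyss and at 502, 508 and 517 CPM without it, with no overlap and a log2FC of 0.23 ± 0.042 (adjusted p = 0.0013). The log2FC was 0.22 ± 0.079 for LATS2 (adjusted p = 0.062), whose groups overlapped, and 0.17 ± 0.050 for AMOTL2 (adjusted p = 0.027), whose groups did not. The 6 YAP targets thus had positive log2FC, between 0.17 and 1.03, with a median of 0.28 beside -0.012 over all genes tested.

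The SRF targets gave another picture. ACTA2 was at 491, 492 and 522 CPM with Cyss and at 411, 400.2 and 414 CPM without it, with no overlap. Its log2FC of -0.29 ± 0.043 (adjusted p = 0.00019) fell short of the fold change threshold, and with scaling by library size alone it was -0.35 and was called. The log2FC was -0.05 ± 0.052 for TAGLN, 0.01 ± 0.053 for CNN1 and 0.05 ± 0.043 for TPM1, with adjusted p-values of 0.53, 0.94 and 0.45. The 95% confidence intervals of these 3 reached from -0.16 to 0.06 for TAGLN, from -0.11 to 0.12 for CNN1 and from -0.04 to 0.14 for TPM1, with the signs of CNN1 and TPM1 turning under scaling by library size and that of TAGLN without NRF2 without Cyss replicate 1. The median over the 4 SRF targets was -0.02.

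The effect of NRF2 itself was compared in each medium. With Cyss, none of the 10 genes was called between NRF2 and GFP cells: 0 were higher and 0 lower, beside 1.36% higher and 0.201% lower among 17449 genes tested, 0 had an unadjusted p under 0.05 (19% of all genes tested), and DESeq2 called 0. The log2FC ranged from -0.16 for ANKRD1, whose interval reached from -0.56 to 0.25, to 0.07 for AMOTL2. The CTGF interval reached from -0.07 to 0.08 and that of ACTA2 from -0.12 to 0.08. AXL had no overlap between groups, at most 623 CPM in NRF2 cells and at least 632 CPM in GFP cells, with a log2FC of -0.06 (adjusted p = 0.36).

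Without Cyss, ACTA2 was the gene called. It was at 560.2, 559.9 and 485 CPM in GFP cells and at 411, 400.2 and 414 CPM in NRF2 cells, 0.764 of the GFP level by the fit. All NRF2 libraries lay below all GFP libraries, and the log2FC was -0.39 ± 0.056 (adjusted p = 0.00088, edgeR). Without GFP without Cyss replicate 3, the lowest of the GFP libraries, it was -0.45, and without NRF2 without Cyss replicate 1 it was -0.40. Thus 1 of the 10 genes was called lower and 0 higher, beside 4.09% lower and 5.98% higher among 17297 genes tested (708 and 1034 genes, or 1001 and 876 with scaling by library size alone). At an unadjusted p under 0.05 the count was 8 of 10, beside 34.5% of all genes tested, and DESeq2 called the same numbers of genes higher and lower.

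Several YAP targets were higher in NRF2 cells without Cyss by less than the fold change threshold. CTGF had a log2FC of 0.25 ± 0.041 (adjusted p = 0.0016), AXL one of 0.22 ± 0.055 (adjusted p = 0.016) and CYR61 one of 0.16 ± 0.041 (adjusted p = 0.017). AXL was at 651, 644 and 676 CPM in GFP cells without Cyss, below all NRF2 libraries. ANKRD1 had a log2FC of 0.34 ± 0.15 with an adjusted p of 0.14, and 0.43 with an adjusted p of 0.074, which was called, without NRF2 without Cyss replicate 3. TAGLN was at 852, 872.2 and 872.2 CPM in GFP cells and at 686, 763 and 802 CPM in NRF2 cells, a log2FC of -0.21 ± 0.051 (adjusted p = 0.015). TPM1 had a log2FC of -0.10 (adjusted p = 0.097) and CNN1 one of -0.10 (adjusted p = 0.20). The 6 YAP targets had positive and the 4 SRF targets negative log2FC, with medians of 0.19 and -0.15 beside -0.016 over all genes. These comparisons share libraries with those of deprivation, and they are not independent of them.

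**Figure D2:**
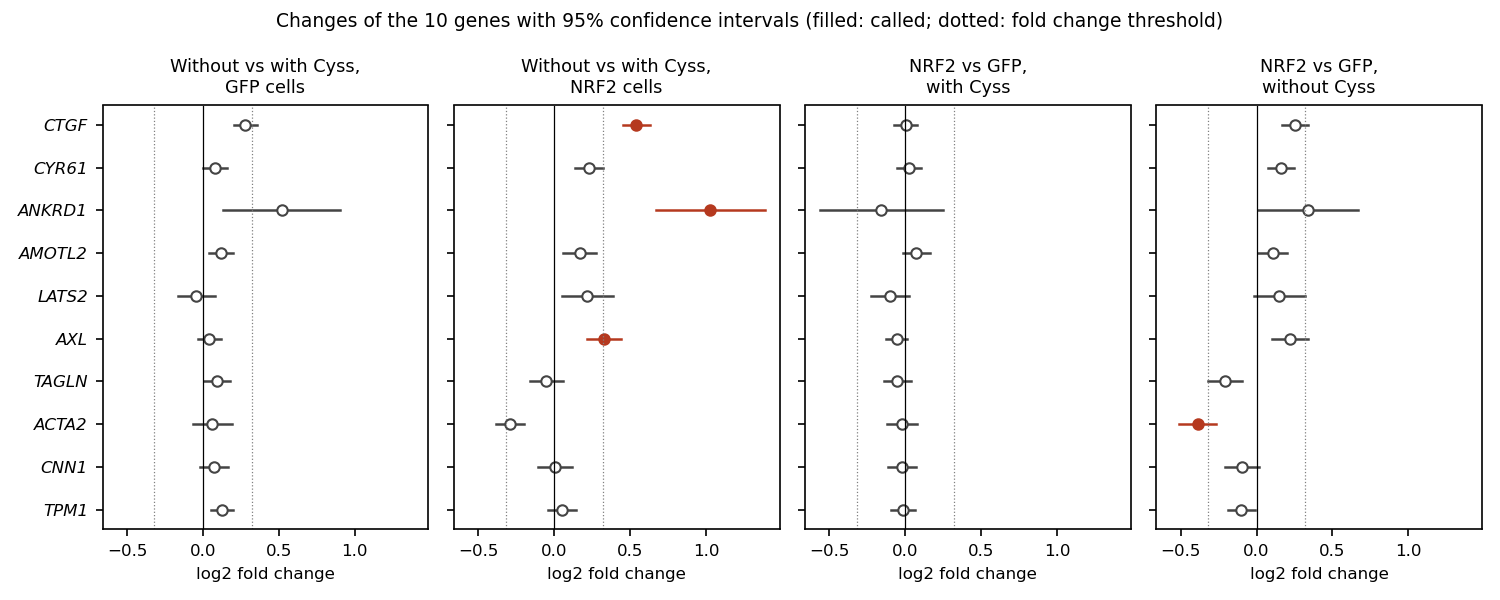
The log2 fold change (horizontal axis) of each of the 10 genes in the 4 comparisons, with 95% confidence intervals from edgeR's fit; filled points were called and dotted lines mark a log2FC of 0.32 in either direction. CTGF, ANKRD1 and AXL are called under Cyss deprivation in NRF2 cells and ACTA2 in NRF2 against GFP cells without Cyss.

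Whether the response to deprivation itself differed between NRF2 and GFP cells was tested as an interaction over all 12 libraries, called at an adjusted p under 0.1. The response was more positive in NRF2 cells for CTGF, AXL and CYR61 and more negative for ACTA2. Thus 3 of the 10 genes were called higher and 1 lower, beside 8.97% and 6.13% of 17674 genes tested (1585 and 1084 genes, or 1124 and 1981 with scaling by library size alone). The difference in log2FC was 0.26 ± 0.051 for CTGF (adjusted p = 0.0039), 0.29 ± 0.063 for AXL (adjusted p = 0.0083) and -0.35 ± 0.079 for ACTA2 (adjusted p = 0.0097). These calls held without each of the 12 libraries in turn, with values of 0.23 to 0.28 for CTGF, 0.23 to 0.32 for AXL and -0.42 to -0.29 for ACTA2. For CYR61 the difference of 0.15 ± 0.053 (adjusted p = 0.086) lost its call in 8 of the 12 such fits, with values of 0.12 to 0.17. LATS2 had a difference of 0.26 ± 0.10 (adjusted p = 0.11), called by DESeq2 (adjusted p = 0.097) and when any of 3 libraries was left out: NRF2 without Cyss replicate 3 (0.35), replicate 2 of GFP with Cyss (0.29) or replicate 3 of GFP without Cyss (0.30). For ANKRD1 the difference was 0.51 with an interval from -0.01 to 1.03, so that its larger response in NRF2 cells was not shown to differ from that in GFP cells. The differences for TAGLN (-0.14), CNN1 (-0.06), TPM1 (-0.08) and AMOTL2 (0.05) were not called. TAGLN was called without NRF2 without Cyss replicate 3 (-0.18) or GFP with Cyss replicate 2 (-0.19).

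To place the 10 genes among others of their pathways, lists written from general knowledge, with earlier results of these data known, were counted. The list of YAP targets holds 30 genes, the 6 described above among them. In GFP cells deprivation raised 1 of 30, beside 1.57% of all genes tested. This was GADD45A, a stress-inducible gene also known as a target of p53 (log2FC 0.55 ± 0.059, adjusted p = 8.8e-05, edgeR). In NRF2 cells deprivation raised 14 of 30 and lowered 0, beside 6.81% and 5.14% of all genes tested. The median log2FC was 0.30 beside -0.012 over all genes. Among the 24 YAP targets outside the 10 genes, 11 rose. Besides ANKRD1, the largest increases included that of FJX1, which encodes a secreted protein (log2FC 0.78 ± 0.085, adjusted p = 1.1e-05). The count was 11 without NRF2 without Cyss replicate 1. F3, which encodes tissue factor, was the YAP target with the largest difference between NRF2 and GFP cells without Cyss (0.76 ± 0.099, adjusted p = 0.00054, edgeR). FJX1 (0.61) and AMOTL1 (0.43) followed. In that comparison 6 of 30 were called higher and 0 lower, beside 5.98% and 4.09% of all genes tested. With Cyss, NRF2 changed 0 of 30 (edgeR and DESeq2), and 11 had an unadjusted p under 0.05, beside 19% of all genes tested. In the interaction 16 of 30 were called higher and 0 lower, beside 8.97% and 6.13% of all genes tested, led by FJX1 (0.78) and F3 (0.56). The count higher lay between 11 and 18 when 1 library was left out.

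The list of SRF and MRTF targets, also of 30 genes and with CYR61 on both lists, gave other counts. Deprivation changed 0 of 30 in GFP cells, where DESeq2 also called 0. There 6 had an unadjusted p under 0.05, beside 18.1% of all genes tested. In NRF2 cells deprivation raised 0 and lowered 1, beside 6.81% and 5.14% of all genes tested, and the median log2FC was 0.002. The gene lowered was LMOD1, which encodes leiomodin, an actin nucleator of smooth muscle (log2FC -0.69 ± 0.10, adjusted p = 0.00015, edgeR). At an unadjusted p under 0.05 the count was 13 of 30, beside 34.1% of all genes tested. At an adjusted p under 0.1 without the fold change threshold, 7 were higher and 4 lower, beside 15.2% and 13.8% of all genes. LMOD1 was at 46.9, 45.5 and 46.0 CPM with Cyss and at 33.5, 29.0 and 23.0 CPM without it in NRF2 cells, and its groups did not overlap. With Cyss, NRF2 changed 0 of 30 (edgeR and DESeq2), with 9 at an unadjusted p under 0.05, beside 19% of all genes tested. Without Cyss, LMOD1 (-0.66) and ACTA2 were called lower in NRF2 cells and 0 were called higher (1 by DESeq2). Among all genes tested 4.09% were called lower and 5.98% higher. At an unadjusted p under 0.05 the count was 16 of 30, beside 34.5% of all genes. In the interaction 4 of 30 were higher and 5 lower, beside 8.97% and 6.13% of all genes tested. Those higher were led by ZYX (zyxin, 0.25), TLN1 (talin, 0.22) and ITGA5 (an integrin, 0.15). Those lower were led by LMOD1 (-0.68), ACTA2 and FHL1 (a LIM domain protein, -0.26). The count higher lay between 1 and 5 over the alternatives.

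**Figure D3:**
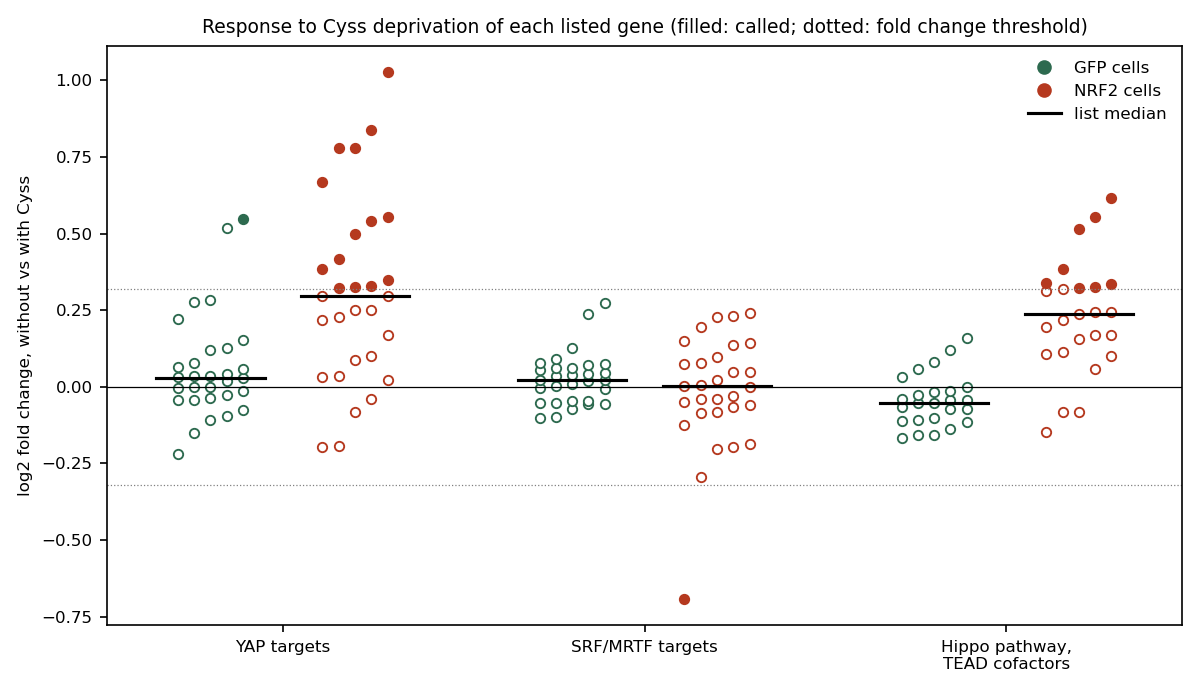
The log2 fold change without against with Cyss (vertical axis) of each gene of 3 lists in GFP and in NRF2 cells, with 1 point per gene, filled where called; black lines are list medians and dotted lines mark a log2FC of 0.32 in either direction. In NRF2 cells 14 of 30 YAP targets lie filled above the threshold, whereas among SRF and MRTF targets the filled point is LMOD1, below it.

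The regulators were examined at the level of their mRNA, which does not report their location or phosphorylation. WWTR1 was at 241, 245 and 241 CPM in NRF2 with Cyss and at 308, 322 and 285 CPM without Cyss. It was called higher under deprivation in NRF2 cells (log2FC 0.34 ± 0.051, adjusted p = 0.00025), as was TEAD1, which encodes a TEAD factor (0.32 ± 0.047, adjusted p = 0.00016), which lay just past the threshold. In GFP cells their log2FC were -0.07 and -0.04, and the interaction was called for both WWTR1 (0.41, adjusted p = 0.0059) and TEAD1 (0.37, adjusted p = 0.0032). YAP1 had a log2FC of 0.16 (adjusted p = 0.039) in NRF2 cells and -0.11 (adjusted p = 0.18) in GFP cells, and its interaction was called (0.27, adjusted p = 0.018). TEAD4 had a log2FC of 0.11 (adjusted p = 0.35) in NRF2 cells. SRF had a log2FC of 0.004 (adjusted p = 0.96) there, MKL1 of -0.01 and MKL2 of 0.05, with adjusted p-values of 0.88 and 0.55. The SRF mRNA lay between 111 and 124 CPM in all 12 libraries.

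Of the 27 genes of the Hippo pathway and TEAD cofactors, 25 were tested, and 8 of them are also on the list of YAP targets. Deprivation changed 0 of 25 in GFP cells (edgeR and DESeq2), with 6 at an unadjusted p under 0.05, beside 18.1% of all genes tested. In NRF2 cells it raised 8 and lowered 0, beside 6.81% and 5.14% of all genes. The largest increases were those of STK4, which encodes the Hippo kinase MST1 (0.62 ± 0.050), AMOTL1, an angiomotin-like protein (0.55 ± 0.047), and MAP4K4, a kinase that acts on LATS (0.51 ± 0.047). These genes encode negative regulators of YAP as well as its partners. The count fell to 5 without NRF2 without Cyss replicate 1 and to 4 with scaling by library size. With Cyss, NRF2 changed 0 of 25 (edgeR and DESeq2), with 8 at an unadjusted p under 0.05, beside 19% of all genes tested. Without Cyss, 6 were higher in NRF2 cells, beside 5.98% of all genes tested. They were led by AMOTL1 (0.43), STK4 (0.42) and MOB1B (0.40), a LATS cofactor. In the interaction 16 of 25 were called higher and 0 lower, beside 8.97% and 6.13% of all genes tested. They were led by AMOTL1 (0.52), MOB1B (0.48) and VGLL3 (0.48), a TEAD cofactor. The count higher lay between 13 and 19 when a library was left out.

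Relatives of the 10 genes were counted in the same way. Of the 5 CCN family members tested, deprivation in NRF2 cells raised CTGF and lowered WISP1 (log2FC -0.43 ± 0.055, adjusted p = 4.1e-05), which encodes a matricellular protein induced by WNT signaling. WISP1 was at 465, 480.0 and 470.1 CPM with Cyss and at 374, 343 and 326 CPM without it, and in NRF2 against GFP cells without Cyss its log2FC was -0.36. Its interaction was -0.47 (adjusted p = 0.0026). Of the 5 TAM receptors and ligands, AXL was the one called, higher under deprivation in NRF2 cells and in the interaction. Among all genes tested, 6.81% were called higher and 5.14% lower under that deprivation, and 8.97% higher and 6.13% lower in the interaction. The median log2FC of the TAM list was -0.002 under that deprivation, beside -0.012 over all genes tested. GAS6, the ligand of AXL, lay between 126 and 157 CPM in all libraries, with a log2FC of -0.002 (adjusted p = 0.98) under deprivation in NRF2 cells and of 0.22 (adjusted p = 0.011), below the fold change threshold, for NRF2 with Cyss.

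The genes most like each of the 10 in their pattern over the 12 libraries were sought by the root mean square (RMS) difference of centered log2 CPM among 9818 other genes with a mean of at least 10 CPM. FYN and SLC7A1 came nearest to CTGF, with RMS differences of 0.056 and 0.062 beside its own SD of 0.23. LARP1 and GNL3L came nearest to AXL (0.023 and 0.030 beside an SD of 0.13), and TMEM106C and C14orf1 to ACTA2 (0.055 and 0.055 beside 0.17). PPP1R15B and BCAT1 came nearest to ANKRD1, at a larger distance (0.13 and 0.13 beside 0.35). RELA and RNPS1 came nearest to CYR61, ZNF236 and PXDN to AMOTL2, and CHD1 and PIK3CA to LATS2. MRPS22 and RPS3 came nearest to TAGLN, FAM204A and SYNC to CNN1, and BECN1 and IWS1 to TPM1. These RMS differences lay between 0.021 and 0.041, beside SDs between 0.055 for CNN1 and 0.11 for LATS2. For CNN1 they were 0.034 and 0.035, large beside its SD. The points share libraries and scaling, and no test was made of these likenesses.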

How the data were processed

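RNA-seq was analyzed in 12 libraries of Hs 578T cells. The authors sequenced single-end reads, mapped them to hg19 with TopHat2 2.1.0 and counted them on exons with HTSeq 0.11.2 without regard to strand, and the deposited values are raw counts per gene symbol. The annotation used for counting is not given in the sources used here. Of 55765 symbols, 523 rRNA genes were left out, since the files still hold them, and so were the 5 counters of unassigned reads, which took 15.9 to 17.1% of the reads in a file. Pairs of replicates differed by more than sampling noise (chi-square per degree of freedom 2.22 to 13.0).

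R 4.3.3 with edgeR 4.0.16 and Python 3.11.15 with matplotlib 3.10.9 were used. TMM factors were computed within the 6 libraries compared (12 for the interaction), genes whose normalized count averaged under 10 in every group compared were dropped, and edgeR's quasi-likelihood F-test was run with p-values adjusted over all remaining genes (Benjamini-Hochberg). A gene was called at an adjusted p below 0.1 with a log2FC beyond 0.32 in either direction, the thresholds of the study's legends, and for the interaction at an adjusted p below 0.1 alone. Levels are CPM with TMM scaling over 12 libraries, and comparisons between genes divide by the length of the Ensembl canonical transcript. The script was tested on simulated data with known changes. Alternatives were DESeq2 1.42.0 (size factors, Wald test), scaling by library size, other filters and thresholds, all 12 libraries in the fit, a block for the replicate number, and leaving out each library. The 10 genes and the lists were chosen with earlier results of these data known. By a fixed rule, the text names the 10 genes, the 3 called genes with the largest log2FC in each direction per list and comparison, the regulators YAP1, WWTR1, TEAD1, TEAD4, SRF, MKL1, MKL2 and GAS6, NFE2L2, and the 2 genes most like each of the 10. A named gene and a gene list that this rule covers are not reported here. Marker genes given by name were chosen after their values were seen. Promoters of CYR61 and TAGLN were not analyzed here.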

Additional observations from a re-analysis of the deposited data

Results flagged for a closer look

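The response to Cyss deprivation differed between NRF2 and GFP cells by the interaction test for 4 of the 10 genes. Of these, 3 were called higher and 1 lower, beside 8.97% and 6.13% of all 17674 genes tested. As the log2FC in NRF2 cells minus that in GFP cells, the difference was 0.26 for CTGF (adjusted p = 0.0039), 0.29 for AXL (adjusted p = 0.0083), 0.15 for CYR61 (adjusted p = 0.086) and -0.35 for ACTA2 (adjusted p = 0.0097). The CYR61 call held in 4 of the 12 fits that left out 1 library. Libraries without Cyss lay above those with Cyss for CTGF and CYR61 in both kinds of cells, and for AXL in NRF2 cells. ACTA2 lay lower without Cyss in NRF2 cells, whereas its groups overlapped in GFP cells. Groups of 3 libraries are too small for the search for single outlying libraries.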

How the results depend on the processing

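Under every alternative run, the calls of CTGF and ANKRD1 under deprivation in NRF2 cells, of ACTA2 in NRF2 against GFP cells without Cyss, and of CTGF, AXL and ACTA2 in the interaction kept their direction and their side of the threshold. AXL under deprivation in NRF2 cells lost its call with scaling by library size alone (0.27), and CYR61 in the interaction lost it with that scaling (0.10), without a filter on low counts (0.15) and at an adjusted p under 0.05. Without a fold change threshold, the number of the 10 genes called higher went from 0 to 2 for deprivation in GFP cells. It went from 3 to 6 in NRF2 cells and from 0 to 3 for NRF2 without Cyss. The number lower went from 0 to 1 for deprivation in NRF2 cells and from 1 to 3 for NRF2 without Cyss. Among all genes, that rule called 543 higher and 490 lower of 17452 for deprivation in GFP cells. For deprivation in NRF2 cells it called 15.2% higher and 13.8% lower. For NRF2 without Cyss it called 2425 higher and 2551 lower of 17297. Without a filter on low counts, 2 results among the 10 genes gained a call. ANKRD1 for deprivation in GFP cells (1 gene higher) was among them. With scaling by library size alone, 1 gene was lower for deprivation in NRF2 cells (ACTA2) and 2 in the interaction (ACTA2 and TAGLN). This scaling turned the sign of CNN1 (-0.052) and TPM1 (-0.0094) for deprivation in NRF2 cells and of AMOTL2 in the interaction (-0.0042), and the absence of a filter that of CTGF for NRF2 with Cyss (-0.0098), none of which was called. The cause was not tested.

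Leaving out each library in turn, the number of the 10 genes called higher ranged from 0 to 1 for deprivation in GFP cells and for NRF2 without Cyss, and from 2 to 3 for deprivation in NRF2 cells, and the number lower in the interaction from 1 to 2. Values that changed sign ranged from -0.090 to 0.0038 for TAGLN and from -0.025 to 0.025 for CNN1 (deprivation in NRF2 cells), and for NRF2 with Cyss from -0.019 to 0.033 for CTGF, -0.0019 to 0.051 for CYR61, -0.26 to 0.024 for ANKRD1, -0.085 to 0.012 for ACTA2, -0.041 to 0.011 for CNN1 and -0.047 to 0.014 for TPM1. None of these was called.

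Among all genes, the counts higher and lower ranged over the alternatives from 194 to 543 and from 55 to 490 for deprivation in GFP cells (274 and 93 as reported), from 936 to 2633 and from 611 to 2379 in NRF2 cells (1176 and 887), from 91 to 724 and from 14 to 398 for NRF2 with Cyss (237 and 35), from 765 to 2425 and from 422 to 2551 for NRF2 without Cyss (1034 and 708), and from 913 to 2119 and from 482 to 1981 in the interaction (1585 and 1084). The YAP targets called higher ranged from 10 to 21 for deprivation in NRF2 cells, from 1 to 4 in GFP cells and from 4 to 17 for NRF2 without Cyss, and the Hippo pathway genes from 4 to 18 for deprivation in NRF2 cells and from 3 to 14 for NRF2 without Cyss.

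The correlation of deviations between libraries of the same replicate number ranged from -0.16 to 0.23 and was over 0.1 for every number in none of the comparisons. For deprivation in NRF2 cells, however, every library correlated best with its own number (0.069, 0.14 and 0.12, against at most -0.0085 for other numbers). In NRF2 against GFP cells without Cyss, replicates 1 and 3 correlated best with their own number (0.20 and 0.23), though replicate 2 did not (-0.061). Pairing by replicate number was therefore not excluded. With a replicate block, 2 genes were lower in the interaction, TAGLN joining ACTA2 (-0.14), LATS2 was called (0.26), and no other call among the 10 genes changed. Depth limits ANKRD1, the rarest of the 10, most.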
